A study of Mus musculus with 28 samples.

Results

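The rows of the count tables carry UCSC known-gene identifiers, 1 for each annotated transcript, and a row that stands for several transcripts joins their identifiers with colons. The features described here are those that join 10 or more identifiers. They were found by counting the identifiers in each name, whatever the counts, and they number 135 of 28661 features, or 0.471%. The other features comprised 16694 of a single identifier, 10021 of 2 to 4 and 1811 of 5 to 9.

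Alternative promoters, alternative splicing and alternative polyadenylation let a single gene give rise to many transcripts, and brain is among the tissues where this variety is richest. Neurons use it for adhesion molecules, ion channels and cytoskeletal proteins at the synapse. A joined feature collects the reads of all its transcripts in a single count, so these tables measure how much RNA the group of isoforms gave together and cannot tell which isoform a neuron used. Since the files do not pair these identifiers with gene symbols, the features are given by the first identifier of their names, and neither the function of a feature nor the labelled cell type could be checked against marker genes.

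All 28 libraries came from C57BL/6 mice, and 25 of them were made from 1 neuron each. Cultured cortical neurons were collected by glass pipette (n = 4) or by TIVA (n = 4), and cultured hippocampal neurons by pipette (n = 3) or by TIVA (n = 4). In TIVA, transcriptome in vivo analysis, a tag enters the cells, laser light opens it in a chosen cell, and the opened tag binds polyadenylated RNA for capture. Neurons in slices were hippocampal, by pipette (n = 3) or TIVA (n = 5), or cortical, by TIVA (n = 2), and 3 bulk libraries held hippocampal tissue with all its cell types. Cultures were 7 to 9 days old, and slices and bulk tissue came from mice aged 8 to 10 days, per the labels' protocols. For TIVA, the tag was loaded at 10 uM for 15 min in cultures and at 30 uM for 90 min in slices. Laser power was 30% in cultures and 80% in slices. Between slice and cultured TIVA neurons, the source of the cell and these settings therefore cannot be told apart. No label names the animal or culture of a neuron. The labels of the hippocampal slice neurons by pipette disagree among themselves: their source name says pipette, and their titles and protocol text point to TIVA. The source name was followed, and every value of that group rests on this choice. The protocol text of the cortical slice neurons also mentions the hippocampal CA1 field.

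The 135 features held 1736 of the 55419 identifiers in the files, or 3.13%. The median number joined was 11, and 78 features joined 10 or 11, 48 joined 12 to 19, and 9 joined 20 or more. The longest name, that of uc008eou.1, joined 44 identifiers, and that of uc008tbf.2 joined 40. UCSC identifiers run in order within a numbered block, and in 91 features the identifiers of the main block formed an unbroken run. An identifier from another block was present in 101 features. In 32 features the run of identifiers enclosed at least 1 other feature, up to 30 of them, and in 103 it enclosed none. The second version of an identifier made up 29.6% of the members' identifiers and 24.9% of all identifiers.

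Between 5.30 M and 59.0 M reads (M for mega) were assigned per library. Levels are counts per mega of assigned reads (CPM), and a count of 0 allows up to 3 reads, or 0.0508 to 0.567 CPM depending on the library. Reads outside any feature made up 15.8% to 81.1% of counted reads. CPM is not divided by transcript length, and the files give no lengths, so a difference in CPM between features is a difference in reads and not in molecules. Each group counts as 1 sample, since its libraries are single cells of unnamed animals or pieces of tissue. No test was run, and errors are standard deviations (SD) over n libraries.

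The many-isoform features took between 0.774% and 2.42% of the assigned reads. The mean share was 1.96% ± 0.168 (SD, n = 4) in cultured cortical neurons by pipette and 1.74% ± 0.612 (n = 4) by TIVA. It was 1.71% ± 0.214 (n = 3) in cultured hippocampal neurons by pipette and 1.43% ± 0.732 (n = 4) by TIVA. The widest spread was thus among the cultured TIVA neurons, and it went with the reads taken by the 50 most abundant features of a library. In the 3 cultured TIVA neurons with the smallest member shares, 0.774%, 0.860% and 0.906%, those 50 features held 66.6%, 63.2% and 61.5% of the reads. Among the reads outside the 50 features, the members' share in these neurons was 1.82%, 1.82% and 1.86%, and the 8 cultured TIVA neurons spanned only 1.82% to 2.18%. In slices the mean share was 1.76% ± 0.067 (n = 3) in hippocampal neurons by pipette, 1.97% ± 0.223 (n = 5) in hippocampal neurons by TIVA and 1.60% ± 0.017 (n = 2) in cortical neurons. Bulk hippocampus had 2.04% ± 0.377 (n = 3), so the group means lay within the ranges of other groups. In bulk tissue, fewer cells of a type and less RNA per cell cannot be told apart.

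Many-isoform features were detected more widely than the rest of the annotation in every library. At a common depth of 5.30 M reads, to which each library was thinned, a feature with 1 or more reads counted as detected. The median share detected was 95.2% of the members against 61.6% of all other features in cultured cortical TIVA neurons, and 97.0% against 65.7% in cultured hippocampal neurons by pipette. It was 89.6% against 48.3% in cultured cortical neurons by pipette and 92.2% against 53.9% in cultured hippocampal TIVA neurons. Slice neurons had fewer members with reads. The median was 71.9% against 34% in hippocampal TIVA neurons and 69.6% against 32.1% in hippocampal neurons by pipette, and each cortical slice neuron had reads in 79 of the 135 members, 58.5%, against a median of 25.6%. No slice neuron reached the lowest cultured neuron: slice neurons spanned 58.5% to 73.3% of members and cultured neurons 83.0% to 99.3%. All other features separated in the same way, at 23.7% to 37.3% in slice neurons and 42.9% to 69.8% in cultured neurons. The medians of the slice groups were below that of bulk hippocampus, where it was 89.6% against 57.6%.

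**Figure D1:**
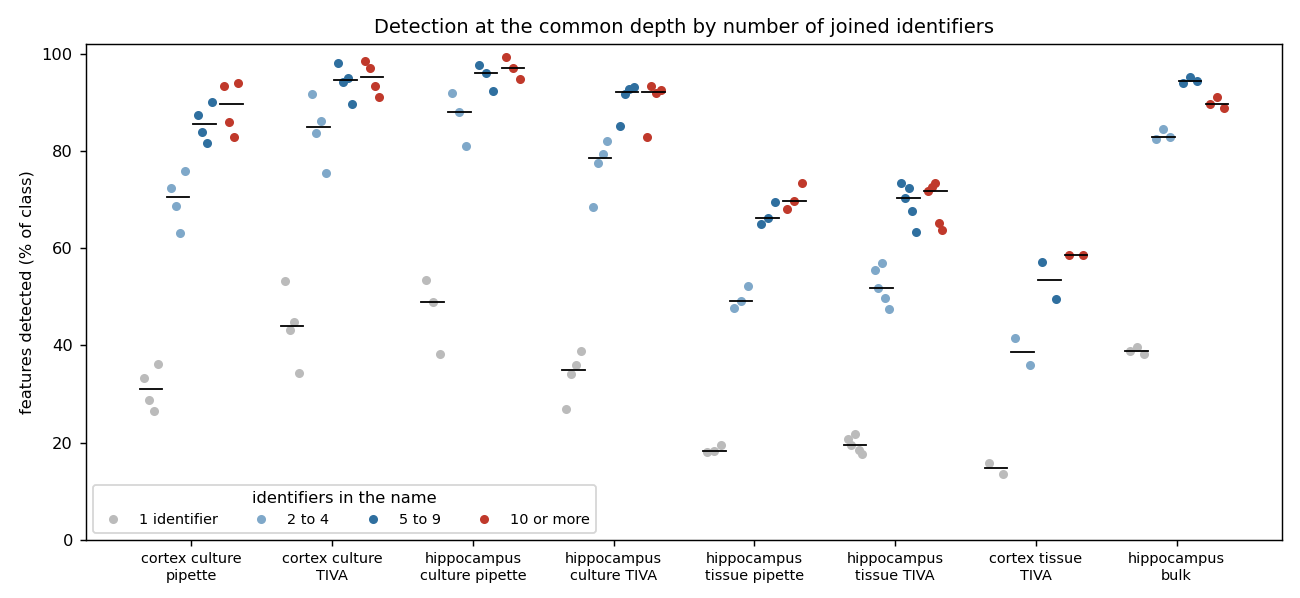
Share of features detected at the common depth (percent, vertical axis) in each library of the 8 groups (slices are labelled tissue), by the number of identifiers a feature joins. Points are libraries and black lines group medians. The members (red) lie above features of a single identifier (grey) throughout, and in the 3 bulk libraries they lie below features of 5 to 9 identifiers (dark blue).

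The lead over features of fewer identifiers was uneven. The share detected rose over all 4 identifier classes in 19 of 28 libraries. Members were above the class of 5 to 9 identifiers in 19 libraries. All 3 bulk libraries were among the exceptions, with a median of 89.6% of members and 94.4% of the features of 5 to 9. Features close to the limit looked alike. The median level was 34.3 CPM for 138 features of 8 identifiers, 35.2 CPM for 65 of 9, 39.0 CPM for 50 of 10 and 29.0 CPM for 28 of 11. Across all 28661 features the number of identifiers and the mean CPM had a Spearman rho of 0.52. Among the 135 members rho was -0.072 and Pearson's r -0.048, so within the group a longer name did not go with more reads. These correlations run across features, which share libraries and are not independent.

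The median over features was 34.3 CPM for the 78 of 10 or 11 identifiers, 23.2 CPM for the 48 of 12 to 19 and 22.6 CPM for the 9 of 20 or more, and the middle 50% of these classes overlapped widely. Features whose run of identifiers enclosed another feature had a median of 9.78 CPM (32 features), against 39.1 CPM for the 103 that enclosed none. A mean under 5 CPM over the libraries was seen in 11 of those 32, or 34.4%, and in 14 of the 103, or 13.6%. How reads that overlap 2 features were assigned is not given in the sources used here, and its part in this difference was not tested.

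At the top of the range, 23 members reached 10 CPM in all 28 libraries, 17.0% against 4.05% of all other features. A level of 50 CPM in every library was held by 11 members, 8.15% against 1.56%, and these 11 accounted for 40.3% to 81.7% of the member reads of a library. At the bottom, every member had at least 1 read somewhere, and 1 member stayed below 1 CPM in all libraries, 0.741% against 29.2%. A mean of 5 CPM or more, the limit for the comparisons below, was reached by 110 members (81.5%) and by 37.3% of all features. Of the 25 members under it, 16 lay below 1 CPM in at least 20 libraries, and 9 reached 10 CPM in at least 1 library.

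The most abundant member was uc008aar.1, which joins 15 identifiers and gave more reads than any other member in 20 of 28 libraries. Its mean was 4157 ± 1027 CPM (SD, n = 4) in cultured cortical neurons by pipette and 1861 ± 791 CPM (n = 4) by TIVA, and the ranges, 3313 to 5569 and 1020 to 2897 CPM, did not overlap. The mean was 1926 ± 136 CPM (n = 3) in cultured hippocampal neurons by pipette and 1380 ± 845 CPM (n = 4) by TIVA, and here the ranges did overlap. In slices it was 2891 ± 1045 CPM (n = 3) in hippocampal neurons by pipette, 2289 ± 541 CPM (n = 5) by TIVA, and 3006 ± 145 CPM (n = 2) in cortical neurons. Bulk hippocampus had 3108 ± 496 CPM (n = 3), within the range of the hippocampal slice neurons by pipette. The order of the group means therefore ran from cultured cortical neurons by pipette down to cultured hippocampal neurons by TIVA, and the ranges of all neighbours in that order overlapped.

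The runner-up, uc012cpp.1 with 12 identifiers, was most variable where it was most abundant. The 2 cortical slice neurons had 1901 and 6545 CPM, and in the second of them this feature alone made up 40.7% of the member reads. The mean was 1571 ± 368 CPM (n = 5) in hippocampal slice TIVA neurons, 1724 ± 954 CPM (n = 3) by pipette and 1036 ± 98.1 CPM (n = 3) in bulk hippocampus. Among cultured neurons the means were 1082 ± 269 CPM (n = 4) in cortical neurons by pipette, 859 ± 358 CPM (n = 4) in cortical TIVA neurons, 677 ± 347 CPM (n = 4) in hippocampal TIVA neurons and 538 ± 13.3 CPM (n = 3) in hippocampal neurons by pipette. The 5 hippocampal slice TIVA neurons, at 1174 to 2163 CPM, all lay above the 4 cultured ones, at 371 to 1072 CPM.

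Among members with a mean of 50 CPM or more, the steadiest was uc008ign.1, which joins 13 identifiers. The SD of its log2(CPM + 10) over the 28 libraries was 0.66, followed by uc008aar.1 at 0.68. It ranged from 390 CPM in a cortical slice neuron to 2689 CPM in a cultured hippocampal TIVA neuron. The 3 hippocampal slice neurons by pipette were at 890 to 942 CPM and the 5 by TIVA at 1077 to 1582 CPM, while the cortical slice neurons had 420 and 390 CPM, below every other library. Even uc008ign.1 thus varied several-fold between single neurons.

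The 2 features with the longest names stood at opposite ends. The feature of 44 identifiers, uc008eou.1, was present in every library. Its mean was highest in hippocampal slice TIVA neurons, at 898 ± 227 CPM (SD, n = 5), and was 470 ± 66.6 CPM (n = 3) in those by pipette, 750 ± 2.37 CPM (n = 2) in cortical slice neurons and 737 ± 275 CPM (n = 3) in bulk hippocampus. In culture the means were 551 ± 137 CPM (n = 4) and 530 ± 382 CPM (n = 4) in cortical neurons by pipette and TIVA, and 400 ± 197 CPM (n = 3) and 391 ± 380 CPM (n = 4) in hippocampal neurons by pipette and TIVA. Of all other members, it was the one whose levels followed uc008aar.1 most closely, with a Pearson r of 0.62 on the log2(CPM + 10) scale over 28 libraries, and uc012cpp.1 came next at 0.49. In contrast, uc008tbf.2, of 40 identifiers, had no read in 14 libraries and at most 2.62 CPM. It had no read in any of the 10 slice neurons, where a count of 0 allows up to 0.0897 to 0.567 CPM.

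**Figure D2:**
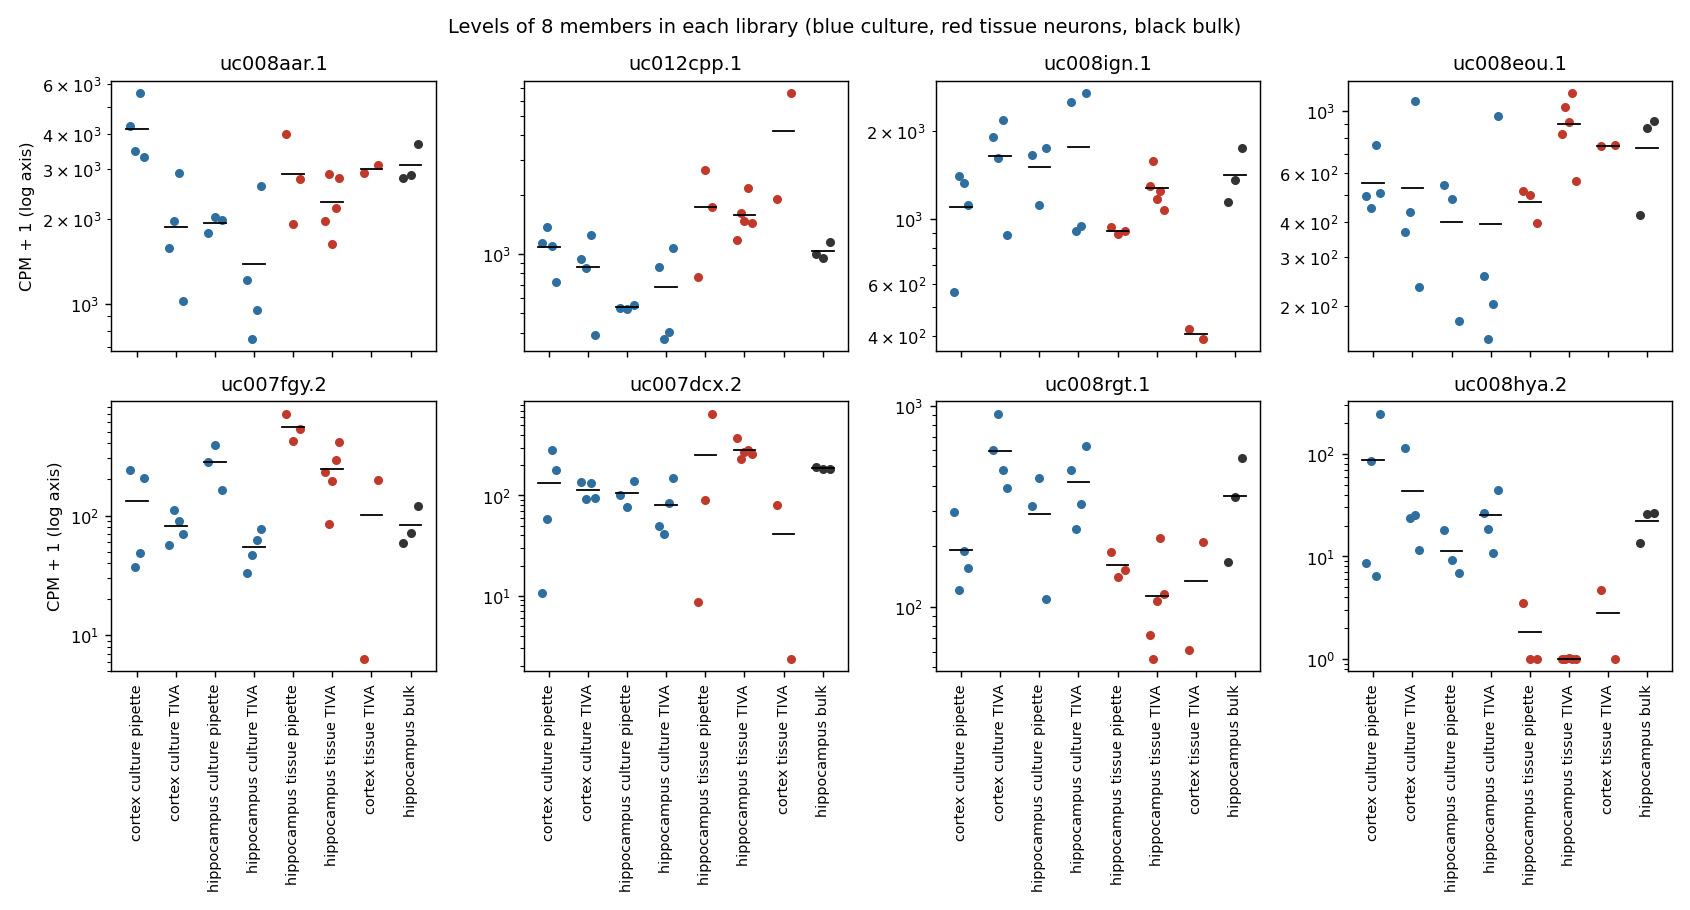
Level of 8 members in each library (CPM + 1 on a log axis, whose range differs between panels), with libraries grouped along the horizontal axis. Points are libraries, blue for cultured neurons, red for slice neurons and black for bulk tissue, and black lines are group means. The upper row holds abundant members that every library contains, and the lower row the 2 largest differences in each direction between hippocampal slice and cultured TIVA neurons among members without overlap and with 10 or more reads in each higher library, where uc008hya.2 lies at the bottom of its panel in the 5 slice neurons.

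To compare slices with cultures, capture by TIVA with the pipette, single neurons with bulk tissue, and cortex with hippocampus, the difference of group means of log2(CPM + 10) was taken for each feature with a mean of 5 CPM or more. The median difference of all 10694 such features was subtracted, and a feature past 1 on this scale, a 2-fold change of CPM + 10, was called higher or lower. The added 10 CPM understates the difference of low features. Overlap between groups was judged on levels without subtraction of the median.

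Between hippocampal neurons in slices and in culture, both by TIVA, the many-isoform features differed in both directions. Tag and laser settings differed between these groups as well. Of 110 members, 14 (12.7%) were higher in slices and 17 (15.5%) were lower, where 13.7% and 9.44% of all features were. The members' median difference was -0.053. With DESeq2 size factors in place of library totals, 10 were higher (9.09%) and 21 lower (19.1%), against 10.6% and 9.97% of all features. In 5 members all slice neurons lay above all cultured ones in addition to passing the limit, and in 4 they lay below, where 4.51% and 3.84% of all features did so. The groups by pipette gave 22 members higher in slices (20%) and 11 lower (10.0%), against 15.1% and 13.4% of all features, with a median of -0.077. Without overlap between the groups, 5 members were higher and 11 lower, where 4.54% and 11.4% of all features were. Without subtraction of the median of all features, -0.54, 12 were higher (10.9%) and 32 lower (29.1%), against 6.73% and 30% of all features. Without the third slice neuron or the third cultured neuron of that comparison, the share lower was 16.4%, against 15.5% and 15.0% of all features.

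The cortical neurons gave the largest shift of the members' median among the 10 comparisons. Of the 110 members, 36 (32.7%) were lower in the 2 slice TIVA neurons than in the 4 cultured ones, where 16.6% of all features were, and 11 (10.0%) were higher, where 18.9% were. The median difference of the members was -0.43. With DESeq2 size factors 22 were higher (20%) and 34 lower (30.9%), against 24.9% and 18.2% of all features. Without subtraction of the median of all features, -0.77, 5 were higher (4.55%) and 65 lower (59.1%), against 9.08% and 40.6%. In 32 of the 36, both slice neurons lay below all 4 cultured neurons, and so they did in 1673 of the 1775 features called lower. In 4 of the 11 they lay above all 4, as in 601 of the 2026 features called higher. Out of all 10694 features tested these were 15.6% and 5.62%, to be set against 32 and 4 of the 110 members. Since overlap was judged without the subtraction of -0.77, features called lower separate more easily than those called higher. With either slice neuron left out the share of members lower was 34.5% and 27.3%, against 19.3% and 18.7% of all features. At a mean of 20 CPM or more it was 32.9% of 79 members against 20.6%. The background comes close with 1 CPM added in place of 10, at 35.5% of members and 30.5% of all features. The share higher was 16.4% without the first slice neuron and 19.1% without the second, against 19.1% and 24.3% of all features. These 2 slice neurons are among the shallowest libraries, at 7.89 M and 5.30 M reads, and had the lowest member medians of all libraries, 1.52 and 0.567 CPM. The part of depth in the shift was not tested.

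The hippocampal and cortical TIVA comparisons share no library, so their lists can be set side by side. Of the 17 members lower in hippocampal slices, 13 were also lower in cortical slices, 76.5% of the first list and 36.1% of the second. Over all features tested the corresponding shares were 40.6% and 23.1%. Members were called lower more often to begin with, 32.7% in cortex and 15.5% in hippocampus, against 16.6% and 9.44% of all features. The larger overlap of the members is to be read against these shares. Of the members higher in slices, 5 were in both lists, 35.7% of the 14 and 45.5% of the 11, against 37.5% and 27.1% of all features. With the pipette comparison of the hippocampus, the hippocampal TIVA comparison had 4 higher members in common, 28.6% of the 14 and 18.2% of the 22, against 29.5% and 26.7% of all features. It had 1 lower member in common, 5.88% of the 17 and 9.09% of the 11, against 18.8% and 13.3%, and 4 members were called in opposite directions. No chance level is attached to these counts.

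**Figure D3:**
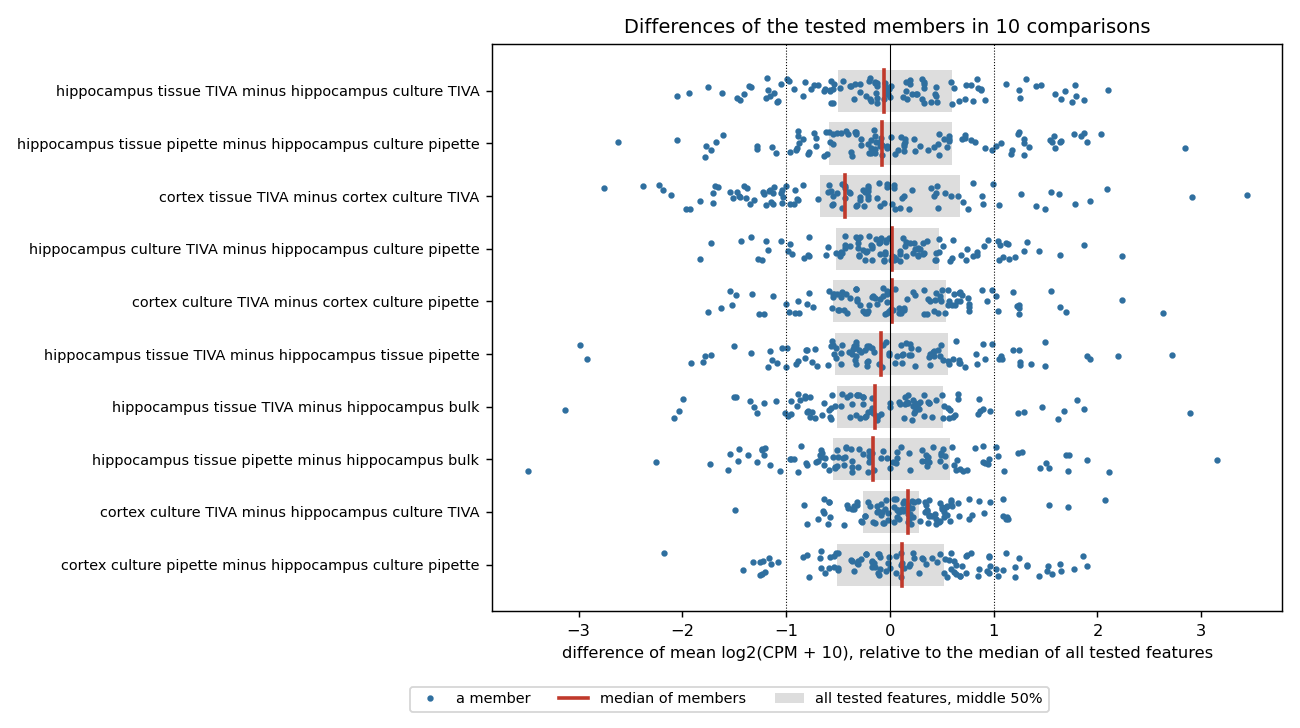
Difference of each of the 110 tested members in the 10 comparisons (horizontal axis, difference of mean log2(CPM + 10) after subtraction of the median of all features tested). Points are members, red lines their medians, grey bars the middle 50% of all tested features, and dotted lines the limits of -1 and 1. The red line lies at -0.43 for cortical slice against cultured TIVA neurons and between -0.16 and 0.17 in the other comparisons.

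Among the 5 members with a mean of 20 CPM or more, no overlap between the groups and 10 or more reads in every slice neuron, the 2 with the largest excess in hippocampal slice TIVA neurons were chosen by that difference, which is given as a description. Members outside these limits had differences of up to 2.10. Levels of uc007fgy.2, which joins 11 identifiers, were 231, 84.3, 192, 290 and 409 CPM in the 5 slice neurons and 31.8, 45.7, 61.9 and 76.8 CPM in the 4 cultured TIVA neurons. The groups did not overlap, and the difference was 1.79. Neurons by pipette, which the choice did not use, had 707, 415 and 529 CPM in slices and 277, 390 and 161 CPM in culture, again without overlap, a difference of 1.56. Bulk hippocampus had 58.0, 70.8 and 119 CPM, below 4 of the 5 slice TIVA neurons and all 3 by pipette. The cortical slice neurons were split, at 5.32 and 196 CPM, around the 56.2 to 109 CPM of their cultured counterparts.

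The other, uc007dcx.2, also of 11 identifiers, had 370, 230, 268, 284 and 260 CPM in the slice TIVA neurons of the hippocampus and 49.0, 40.3, 82.3 and 147 CPM in the cultured ones, a difference of 1.75. All 5 slice neurons lay close together and above the cultured ones. The 3 hippocampal slice neurons by pipette did not show this uniformity, with 7.66, 89.0 and 654 CPM, a range that spans all the neurons by TIVA. Cortical slice neurons had 79.3 and 1.32 CPM, both below the 90.6 to 135 CPM of the cultured cortical TIVA neurons, the opposite direction to the hippocampus. Bulk hippocampus had 191, 182 and 184 CPM.

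The same limits, applied in the other direction, were met by 3 members. Of these uc008rgt.1, of 10 identifiers, was lowest in hippocampal slice TIVA neurons, by a difference of -1.93, and members outside the limits reached -2.05. It had 71.2, 53.9, 106, 218 and 115 CPM in slices and 477, 243, 326 and 628 CPM in culture, without overlap. In cortical TIVA neurons, which the choice did not use, it had 59.8 and 209 CPM in slices and 391 to 914 CPM in culture, also without overlap. By pipette the hippocampal groups overlapped, at 140 to 187 CPM in slices and 109 to 436 CPM in culture, and the difference was -0.077.

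The other member chosen as lower in slices was uc008hya.2, of 15 identifiers. A single read was counted over all 5 hippocampal slice TIVA neurons, against 1584 reads in the 4 cultured ones, whose levels were 25.5, 17.7, 9.92 and 43.2 CPM. The ratio of summed CPM, culture over slice, was 2843, with an exact 95% interval of 510 to 112379 that covers counting error only. The difference on the log2(CPM + 10) scale was -1.75. Little was found in the other slice neurons either: 2.55, 0 and 0 CPM in hippocampal neurons by pipette, and 3.67 and 0 CPM in cortical neurons. All 15 cultured neurons had reads, from 5.52 to 244 CPM, and bulk hippocampus had 12.7, 24.9 and 25.4 CPM. Every one of the 10 slice neurons was thus below every cultured and every bulk library.

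Between capture by TIVA and by pipette, members differed in both directions. In cultured hippocampal neurons 14 members (12.7%) were higher by TIVA and 9 (8.18%) lower, against 8.17% and 10.7% of all features. The share higher was 7.27% without the first TIVA neuron and 8.18% without the third pipette neuron, against 6.17% and 8.69% of all features. In cultured cortical neurons 12 (10.9%) were higher and 10 (9.09%) lower, against 11% and 12%. Without the first TIVA neuron the share higher there was 6.36%, against 10.9% of all features. In hippocampal slices 14 (12.7%) were higher and 13 (11.8%) lower, against 12.7% and 13.1%. The medians of the members were 0.015, 0.021 and -0.089. The largest gap to the share of all features was that of the members higher in cultured hippocampal TIVA neurons. In slices, 1 of the groups compared carries the labels that disagree.

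Single neurons of hippocampal slices were compared with bulk hippocampus, which holds glia and vessels besides neurons. By TIVA, 8 members (7.27%) were higher in the neurons and 12 (10.9%) lower, against 10.4% and 10.1% of all features. By pipette, 14 (12.7%) were higher and 15 (13.6%) lower, against 13.5% and 11.8%. The medians were -0.15 and -0.16, and the latter was 0.24 with 1 CPM added and 0.12 without the third pipette neuron. These comparisons share the bulk libraries.

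Between the regions, cultured cortical TIVA neurons had 8 members (7.27%) higher than hippocampal ones and 1 (0.909%) lower, against 2.23% and 1.70% of all features, and the members' median was 0.17. The share higher rested on the first cortical TIVA neuron: without it 3.64% of members and 2.42% of all features were higher. By pipette 18 members (16.4%) were higher in cortex and 11 (10.0%) lower, against 10.4% and 10.7%, with a median of 0.11. Of the 8 and 18 members, 2 were higher in cortex in both comparisons, 25% and 11.1% of the lists, against 20.5% and 4.39% of all features.

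Ranked by group mean, 28 of the 110 members (25.5%) had their highest level in cultured cortical neurons by pipette, 18 (16.4%) in cultured cortical TIVA neurons, 17 (15.5%) in hippocampal slice neurons by pipette, 15 (13.6%) in cultured hippocampal neurons by pipette and 3 (2.73%) in cultured hippocampal TIVA neurons. Among all features the same groups held 21.0%, 7.00%, 14.1%, 17.7% and 2.38%. Hippocampal slice TIVA neurons were the highest group for 10 members (9.09%), against 17.0% of all features. The lowest level lay in cortical slice neurons for 61 members (55.5%) and for 51.4% of all features.

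Neurons of the same group could differ in whether a many-isoform feature was abundant or nearly without reads. A member at 50 CPM or more in a library was called off in another library of the group when it lay below 1 CPM there. Off does not mean absent, since a feature below 1 CPM can still have reads. In cultured TIVA neurons of either region, cultured hippocampal neurons by pipette and bulk tissue, 0 members switched in this way, and 0.109% to 1.15% of the other features that were on did. In cultured cortical neurons by pipette 18 of 91 members that were on in some neuron were off in another, 19.8% against 26.9% of the other features. The counts were 15 of 71 (21.1% against 26.4%) in hippocampal slice neurons by pipette, 22 of 80 (27.5% against 39.5%) in those by TIVA and 11 of 48 (22.9% against 29.8%) in cortical slice neurons. The members' share was below that of the other features in each of the 4 groups where any were off, and this difference was not tested. Features of 5 to 9 identifiers lay closer to the members. Over pairs of libraries, the share off was 4.13% for members, 4.48% for features of 5 to 9 and 7.41% for all others in cultured cortical neurons by pipette. In hippocampal slice neurons it was 7.52%, 8.55% and 10.5% by pipette and 5.99%, 7.35% and 9.08% by TIVA, and in cortical slice neurons 17.5%, 19.6% and 22.4%.

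Abundance differed between the sets compared, and the gap was not present at every level. Over pairs of hippocampal slice neurons by pipette, members at 50 to 100 CPM were off in 18.4% of cases and other features in 17.0%. At 100 to 200 CPM the shares were 2.44% (2 of 82 cases) and 10.3%, and features of 5 to 9 identifiers had 6.35%. In hippocampal slice TIVA neurons they were 17.3% and 15.4% at 50 to 100 CPM, and 5.49% and 7.75% at 100 to 200 CPM. Above that they were 0.208% (1 of 480 cases) and 2.02%, with 1.15% for features of 5 to 9. A case is a feature in an ordered pair of libraries, so a feature can count several times. The SD between libraries of a group gave no single direction either: over 32 pairs of group and level class, the members' median SD was below that of other features in 11 and above it in 21.

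**Figure D4:**
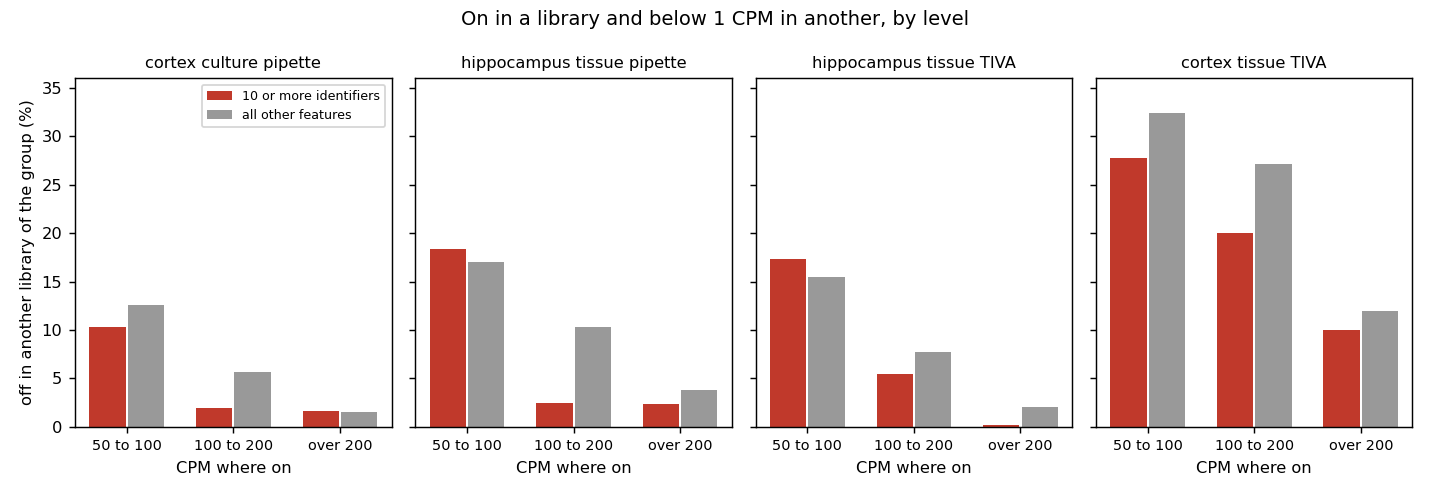
Share of cases (percent, vertical axis) in which a feature that is on in a library is below 1 CPM in another library of the group, by its level where on (CPM, horizontal axis), for members (red) and all other features (grey). Panels are the 4 groups in which any member was off. The bars are close together at 50 to 100 CPM in the hippocampal slice groups and furthest apart at 100 to 200 CPM in those by pipette, 2.44% against 10.3%. The 2.44% rests on 2 of 82 cases.

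The members at 50 CPM or more in some library and below 1 CPM in the most others were uc009ehb.1, of 19 identifiers, and uc009hfp.2, of 13. The first reached 75.4 CPM in a cultured cortical neuron and 69.0 CPM in a cultured hippocampal neuron, both by pipette, and was below 1 CPM in 19 libraries, with no read in any of the 10 slice neurons. The second reached 78.7 CPM in the same cultured cortical neuron as the first and lay at 5.53 CPM or less in all other libraries, 19 of them below 1 CPM. Each was thus above 50 CPM in 1 or 2 neurons only, and the second had a mean under 5 CPM and entered no comparison.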

How the data were processed

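Each of the 28 libraries has a table of unnormalized read counts per feature, deposited by the authors. Per the submitters' processing notes CASAVA 1.8.1, HTSeq and the mouse build mm9 were used. Amplification took 3 rounds of in vitro transcription, per the labels' protocols. No source used here gives the aligner, overlap mode or strand, and overlapping or antisense features and near-identical copies are therefore uncertain. The 5 summary lines, 3 of them 0 in every library, name no gene and were left out; no-feature lines held 15.8% to 81.1% of counted reads and ambiguous lines 0.589% to 10.9%.

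Counts were scaled to CPM of assigned reads (Python 3.11.15, numpy 2.4.6, pandas 2.3.3) and compared as log2(CPM + 10). No test was run. Groups follow the source name. With no date or batch in the labels, group and batch cannot be told apart. TMM factors (edgeR 4.0.16) and size factors (DESeq2 1.42.0) in R 4.3.3 served as alternatives, beside other pseudocounts, filters, limits and left-out libraries. The difference script was tested on simulated data. Intervals and limits cover counting error only.

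The members, comparisons and naming rules were chosen with earlier results of these data known. Named were the 2 members with the most identifiers, the highest mean of group means, the largest difference in each direction between hippocampal slice and cultured TIVA neurons (mean of 20 CPM or more, 10 or more reads in each library of the higher group, no overlap), the smallest SD (mean of 50 CPM or more), and presence at 50 CPM with the most libraries below 1 CPM, and the 2 whose levels correlate best with those of the most abundant. None of the 55419 identifiers matched the annotation tables at hand, of a later build, so no names, coordinates or sequences are given.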

Additional observations from a re-analysis of the deposited data

Results flagged for a closer look

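Dixon's criterion at 95% was applied to 52 sets of 4 or 5 libraries of a group, for the named members and the group measures. In 9 of these sets a library lay far from the others. This count cannot be compared with the 1 in 20 that chance gives. The sets include uc009ehb.1 and uc009hfp.2, which were named for reaching 50 CPM in some library and lying below 1 CPM in the most others. Flags for uc008hya.2 and uc008tbf.2 in hippocampal TIVA neurons rest on 1 and 2 reads. The first cultured hippocampal TIVA neuron had 83.0% of members detected at the common depth, and the other 3 had 91.9% to 93.3%. Levels of uc008eou.1 reached 957 CPM in the fourth cultured hippocampal TIVA neuron, against 151 to 255 CPM in the others.

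The first cultured cortical TIVA neuron stood apart in 2 members: uc008hya.2 had 112 CPM there, against 10.6 to 24.1 CPM, and uc008tbf.2 had 2.62 CPM, against 0.129 to 0.205 CPM. The fourth cultured cortical neuron by pipette did so in 2 others. There uc009ehb.1 had 75.4 CPM, against 0.267 to 5.69 CPM, and uc009hfp.2 had 78.7 CPM, against 0.891 to 3.19 CPM.

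The remaining cases were near 0. In the third hippocampal slice TIVA neuron uc008hya.2 had 0.0299 CPM, a single read, and the others had 0. In the second cultured hippocampal TIVA neuron uc008tbf.2 had 0.0762 CPM, and the others had 0. In the second hippocampal slice TIVA neuron uc009hfp.2 had 0.417 CPM, against 0 to 0.0755 CPM.

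The slice minus culture difference of uc007dcx.2 took opposite directions in the regions: mean levels by TIVA differed by 202 CPM in hippocampus and by -72.3 CPM in cortex, and in each region all slice neurons lay on the same side of all cultured ones. In hippocampus this separation was a condition for naming the member. The difference between the regions was not tested.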

How the results depend on the processing

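No paired analysis was possible because the replicate numbers only follow the order of the records. No result was tested, so a value is compared with its spread. Of the values that answer a comparison, 217 of 312 stayed within their spread, or a count within 1.5 times, when another choice was made, and 304 of 327 when a library was left out. The median of all features before it was subtracted lay between -0.77 and 0.22 over the comparisons. Among medians larger than their spread over libraries, the reversed value was the members' median in hippocampal slice pipette minus bulk. It went from -0.16 to 0.24 with 1 CPM added and to 0.12 without the third pipette neuron, and the cause was not tested. Medians within their spread could change sign too, such as that of hippocampal slice minus culture by pipette, -0.144 to 0.125 with libraries left out. Depth limits the cortical slice neurons most, where a count of 0 allows up to 0.380 and 0.567 CPM. The on-off share of those neurons has no leave-one-out value, since 2 libraries make up the group. 

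Over the 57 members of 12 or more identifiers, the median share of reads was 1.20% (cultured cortical pipette), 1.06% (cultured cortical TIVA), 0.977% (cultured hippocampal pipette), 1.00% (hippocampal slice pipette), 1.15% (hippocampal slice TIVA), 1.17% (cortical slice TIVA) and 1.25% (bulk). Over the 57 members of 12 or more identifiers, the median share detected was 94.7% (cultured hippocampal pipette), 61.4% (hippocampal slice pipette), 59.6% (hippocampal slice TIVA), 54.4% (cortical slice TIVA) and 86% (bulk). Over the 44 tested members of 12 or more identifiers, 9.09% were higher and 2.27% lower in hippocampal slice minus culture by pipette, against 15.1% and 13.4% of all features. In TIVA minus pipette in hippocampal slices the values were median 0.057, 2.27% higher and 6.82% lower, against 12.7% and 13.1%. In hippocampal slice TIVA minus bulk 4.55% were higher, against 10.4%. In cortex minus hippocampus by TIVA 0% were lower, against 1.70%. With 10 or more reads required for detection, the median share detected was 75.2% (cultured cortical pipette), 85.2% (cultured cortical TIVA), 89.6% (cultured hippocampal pipette), 77.4% (cultured hippocampal TIVA), 55.6% (hippocampal slice pipette), 62.2% (hippocampal slice TIVA), 44.1% (cortical slice TIVA) and 83% (bulk). With off meaning 0 reads, the on-off share was 0% (cultured cortical pipette), 1.92% (hippocampal slice pipette) and 3.95% (cortical slice TIVA). With 1 CPM added, the members' SD minus that of others was -0.37 (cultured cortical pipette), -0.056 (cultured hippocampal pipette), -0.012 (cultured hippocampal TIVA), -0.42 (hippocampal slice pipette), -0.38 (hippocampal slice TIVA) and -0.039 (cortical slice TIVA). With 1 CPM added, 23.6% were higher and 25.5% lower in hippocampal slice minus culture by TIVA, against 23.9% and 26.8% of all features. In hippocampal slice minus culture by pipette the values were median 0.28, 31.8% higher and 23.6% lower, against 27.9% and 27.5%. In cortical slice minus culture 24.5% were higher, against 33.2%. In TIVA minus pipette in hippocampal culture 20% were higher and 13.6% lower, against 17.9% and 16.6%. The same choice gave 17.3% higher and 14.5% lower in TIVA minus pipette in cortical culture, against 24.5% and 21.6% of all features. In TIVA minus pipette in hippocampal slices 20% were higher and 21.8% lower, against 25.7% and 23.9%. In hippocampal slice TIVA minus bulk 17.3% were higher and 27.3% lower, against 22.6% and 26.8%. In hippocampal slice pipette minus bulk the values were median 0.24, 31.8% higher and 25.5% lower, against 27.5% and 28.7%. The same choice gave 17.3% higher and 5.45% lower in cortex minus hippocampus by TIVA, against 7.70% and 7.24% of all features. By pipette it gave 29.1% of members higher in cortex, from 16.4% with 10 CPM added. The share of all features at this setting is not given here, so the 29.1% is no result about the members. With on meaning 20 CPM, the on-off share was 9.48% (hippocampal slice TIVA). Outside the 50 most abundant features, the median share of reads was 1.41% (cortical slice TIVA). Without thinning, the median share detected was 94.8% (bulk). Without a filter on low values, hippocampal slice minus culture by pipette gave median -0.35, 8.89% higher and 23% lower, against 2.80% and 10.8% of all features. Cortical slice minus culture gave median -0.93 and 3.70% higher, against 3.78%. In TIVA minus pipette in hippocampal culture the values were median -0.27 and 2.96% higher, against 1.15%. In TIVA minus pipette in hippocampal slices 5.93% were lower, against 3.52%. The same choice gave 19.3% lower in hippocampal slice TIVA minus bulk, against 6.80% of all features. In hippocampal slice pipette minus bulk the values were median -0.37, 5.19% higher and 27.4% lower, against 2.12% and 10.7%. In cortex minus hippocampus by pipette 10.4% were higher, from 16.4% with the filter, and the share of all features is again not given. Without subtraction of the median, hippocampal slice minus culture by pipette gave median -0.62, 10.9% higher and 29.1% lower, against 6.73% and 30.0% of all features. Cortical slice minus culture gave median -1.20, 4.55% higher and 59.1% lower, against 9.08% and 40.6%. In TIVA minus pipette in hippocampal culture the values were median -0.39, 3.64% higher and 15.5% lower, against 2.81% and 22.4%. In TIVA minus pipette in hippocampal slices they were median 0.13 and 7.27% lower, against 9.15%. The same choice gave median -0.43 and 23.6% lower in hippocampal slice TIVA minus bulk, against 17.6% of all features. In hippocampal slice pipette minus bulk the values were median -0.70, 5.45% higher and 33.6% lower, against 5.45% and 28.3%. With TMM factors, the values were 15.5% higher in cortical slice minus culture, against 22.3% of all features, and median -0.043 in hippocampal slice pipette minus bulk. With DESeq2 size factors, the values were 20% higher in cortical slice minus culture, against 24.9% of all features, and median -0.032 in hippocampal slice pipette minus bulk. With a mean of 20 CPM required, the values were 16.5% lower in hippocampal slice TIVA minus bulk, against 13.2% of all features. With counts summed over a group, the values were median -0.055 in hippocampal slice pipette minus bulk, and 2.73% lower in cortex minus hippocampus by TIVA, against 2.29% of all features. With each library left out in turn, the members' SD minus that of others ranged over -0.035 to 0.089 (cultured cortical pipette), 0.018 to 0.18 (cultured cortical TIVA), 0.012 to 0.065 (cultured hippocampal pipette), 0.037 to 0.11 (cultured hippocampal TIVA), -0.17 to -0.057 (hippocampal slice pipette), -0.11 to -0.048 (hippocampal slice TIVA) and -0.044 to 0.047 (bulk). Leaving out each library also gave 7.27 to 16.4% lower in hippocampal slice minus culture by pipette, against 13.4 to 15.5% of all features. In cortical slice minus culture 9.09 to 19.1% were higher, against 18.2 to 24.3%. In TIVA minus pipette 7.27 to 15.5% were higher in hippocampal culture, against 6.17 to 9.65%, and 6.36 to 13.6% in cortical culture, against 10.9 to 13.2%. The median ranged over -0.21 to 0.0090 in TIVA minus pipette in hippocampal slices. The ranges were also a median of -0.17 to 0.12 in hippocampal slice pipette minus bulk, 3.64 to 9.09% higher in cortex minus hippocampus by TIVA and 0.909 to 2.73% lower in cortex minus hippocampus by TIVA.

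Of the members called in a comparison, the share that was higher moved by over 10 points with the scaling or centring: 45.2% in hippocampal slice minus culture by TIVA (32.3% by DESeq2), 66.7% in hippocampal slice minus culture by pipette (27.3% uncentred), 23.4% in cortical slice minus culture (39.3% by DESeq2, 7.14% uncentred), 60.9% in TIVA minus pipette in hippocampal culture (19% uncentred), 51.9% in TIVA minus pipette in hippocampal slices (70.4% uncentred), 40% in hippocampal slice TIVA minus bulk (21.2% uncentred), 48.3% in hippocampal slice pipette minus bulk (14% uncentred). Over all features the balance moved in the same direction each time. The shares higher and lower were 6.73% and 30.0% uncentred in hippocampal slice minus culture by pipette, from 15.1% and 13.4%. In cortical slice minus culture they were 9.08% and 40.6% uncentred, from 18.9% and 16.6%. By DESeq2, hippocampal slice minus culture by TIVA had 10.6% and 9.97%, from 13.7% and 9.44%.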
